A study of Mus musculus with 12 samples.

Results

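Endothelial cells line the blood vessels, and a small set of genes marks them. The genes described here are Pecam1, Cdh5, Esam, Emcn, Tie1, Rhoj and Vwf, which most endothelial cells express, and Sele, Vcam1 and Plvap, which mark activated or fenestrated endothelium. They were chosen by name, and each was read from the probe set that carries its symbol alone. All 10 genes had 1 such probe set, out of 28853 probe sets and 19938 genes with a single-symbol probe set on the array.

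Endothelial cells are joined by cadherin and immunoglobulin-like adhesion proteins, and they store von Willebrand factor, which tethers platelets. When inflammatory cytokines reach them, they place selectins and immunoglobulin-like adhesion molecules on their surface, and leukocytes roll and arrest on these before they leave the vessel. Capillaries of the gut are fenestrated, and the fenestrae are closed by diaphragms built from the Plvap protein.

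Colon RNA from 12 male C57BL/6 mice was measured on Affymetrix whole-transcript arrays, with a single mouse behind each array and 4 groups of 3 mice. The treated groups, WT and TSP-1-/-, received 10 mg/kg of azoxymethane (AOM), a colon mutagen, and 4 cycles of 7 days of 1.5% dextran sulfate sodium (DSS), which injures the colonic epithelium, in their drinking water, with 2 weeks of plain water between the cycles. Treatment began at 7 weeks of age and the mice were killed 15 weeks after AOM. Other WT and TSP-1-/- mice received water. The methods give the tissue as normal and diseased colon without naming the segment, and the study elsewhere calls the treated samples tumors. The sources differ on the AOM injection, which the labels place on the first day of DSS and the methods a week earlier. The labels of the water arrays carry the protocol text of another DSS experiment, so whether both sets of mice were kept together is not given. TSP-1 inhibits angiogenesis, and the study stained tumor vessels for CD31, the product of Pecam1, and for the MECA-32 antigen, the product of Plvap. The question here is how the transcripts of these and other endothelial genes compared between the genotypes.

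The values are log2 levels relative to a baseline of each probe set. A value therefore says how an array stood to that probe set's baseline, not how abundant the transcript was, so levels were not compared between genes and no marker could be read as absent. The AOM/DSS arrays lie on the baseline that the methods give, the median of all 12 arrays, and the water arrays do not. Genotypes were therefore compared within each array set, with limma fitted to all 12 arrays. A gene is said to be called, or to rise or fall, at a Benjamini-Hochberg adjusted p under 0.05 together with at least a 2-fold difference. In RNA of mixed colon tissue, fewer cells of a type and less RNA per cell cannot be told apart.

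Several arrays stood apart before any endothelial gene was considered. The values of TSP-1-/- AOM/DSS replicate 3 were the most spread out, with an SD of 0.753 against 0.293 to 0.453 on the other arrays, and its median over 5 pancreatic enzyme genes was 7.83 against 0.07 and 0.27 on the other TSP-1-/- AOM/DSS arrays. On TSP-1-/- water replicate 1 that median was 0.80, against -0.30 to 0.07 on the other water arrays. The cytokine gene Il1b was at -0.19 on this array, against -4.76 to -3.80 on the other water arrays. Hoxb13, a homeobox gene of the distal colon, was at -6.33 and -5.89 on WT AOM/DSS replicates 2 and 3 but at 0.43 on WT replicate 1 and between -0.06 and 0.78 on the TSP-1-/- AOM/DSS arrays. On the water arrays it was low on replicate 3 of both genotypes (-3.68 in WT and -4.24 in TSP-1-/-) and between 1.52 and 2.48 on the others. Thbs1, the mutated gene, was at 0.27, -0.16 and -0.07 on the WT AOM/DSS arrays and at 0.81, 0.85 and 0.93 on the TSP-1-/- AOM/DSS arrays. On water it was at -1.36, -0.99 and -0.47 in WT and at -0.00, -0.96 and -1.15 in TSP-1-/-. The study describes the mutated gene as still present but making no protein, so this probe set does not check the genotype labels.

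Promoter sequences were at hand for 4 of the 10 genes, Emcn, Tie1, Rhoj and Sele, from RefSeq on mouse assembly GRCm38.p6. The 250 bases before the start of Rhoj (chr12:75308063-75308312, plus strand), Sele (chr1:164047984-164048233, plus strand) and Tie1 (chr4:118489850-118490099, minus strand) are shown, since Rhoj differed between the genotypes, Sele is the cytokine-induced member and Tie1 is the member with the smallest difference. Capitals mark AGGAAG, the core of the site for ETS factors, on either strand (CTTCCT when read on the other), and TATAAA in Sele.
Rhoj: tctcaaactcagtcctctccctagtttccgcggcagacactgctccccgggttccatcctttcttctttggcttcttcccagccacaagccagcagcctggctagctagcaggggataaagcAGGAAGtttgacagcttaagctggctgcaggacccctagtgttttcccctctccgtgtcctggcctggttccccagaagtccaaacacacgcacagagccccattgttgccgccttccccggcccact
Sele: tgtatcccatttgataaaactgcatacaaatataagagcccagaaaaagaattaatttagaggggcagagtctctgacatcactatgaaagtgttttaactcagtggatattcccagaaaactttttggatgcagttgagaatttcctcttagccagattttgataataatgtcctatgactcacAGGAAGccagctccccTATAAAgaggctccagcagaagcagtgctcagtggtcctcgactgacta
Tie1: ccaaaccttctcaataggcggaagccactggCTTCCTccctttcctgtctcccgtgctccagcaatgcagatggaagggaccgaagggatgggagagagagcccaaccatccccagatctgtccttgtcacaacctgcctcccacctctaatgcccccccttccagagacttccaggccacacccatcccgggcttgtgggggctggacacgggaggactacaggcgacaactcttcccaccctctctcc
All 4 promoters held AGGAAG, which 29.5% of 32851 RefSeq promoters of the same length hold. It began 128 bases before the start of Rhoj, 65 before that of Sele, 219 before that of Tie1, and 174 and 93 before that of Emcn (chr3:137340828-137341077, plus strand). TATAAA was found in Sele only, 49 bases before the start, and in 12.4% of all promoters. The site letters searched for NF-kB, GGNNTTTCC, were in none of the 4 and in 4.93% of all promoters. Only the letters given were searched, so ETS and NF-kB sites spelled otherwise would be missed. Those searched for the factors of the GATA family, AGATAA, were likewise in none and in 9.99% of all promoters. Every motif was searched on both strands. No searched motif overlapped another in these windows. Such matches describe letters and not binding.

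In the AOM/DSS arrays the endothelial genes stood higher in TSP-1-/- than in WT colons, and the difference passed the test for 2 of them. Vcam1 rose 3.38-fold and Rhoj 2.02-fold, 2 of the 10 members against 2.78% of all 28853 probe sets called, 1.73% higher and 1.05% lower. The study already reports a 2-fold increase of Rhoj in this comparison from the same arrays. Its call is therefore no independent result. Vwf also had an adjusted p under 0.05 but a difference under 2-fold, which makes 3 members by adjusted p alone, against 8.3% of probe sets, 5.38% higher and 2.93% lower. No member was called lower. An unadjusted limma p under 0.05 was found for 6 of the 10 members and for 9327 of all 28853 probe sets. The median log2 difference was 0.68 over the 10 members and 0.13 over all probe sets. The median over all probe sets became 0.05 when each array was centred on its median and 0.02 after quantile normalization of the 12 arrays again. With these scalings 396 of 810 and 78 of 183 called probe sets were higher, against 500 of 802 as deposited, and 259 of 650 after quantile normalization within each array set. On the values as deposited all 10 differences lay above 0, and that of Tie1 fell below 0 when the arrays were centred. Every TSP-1-/- array lay above every WT array for 7 members, where 20.2% of all probe sets had their groups apart in that direction and 10.7% in the other.

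**Figure D1:**
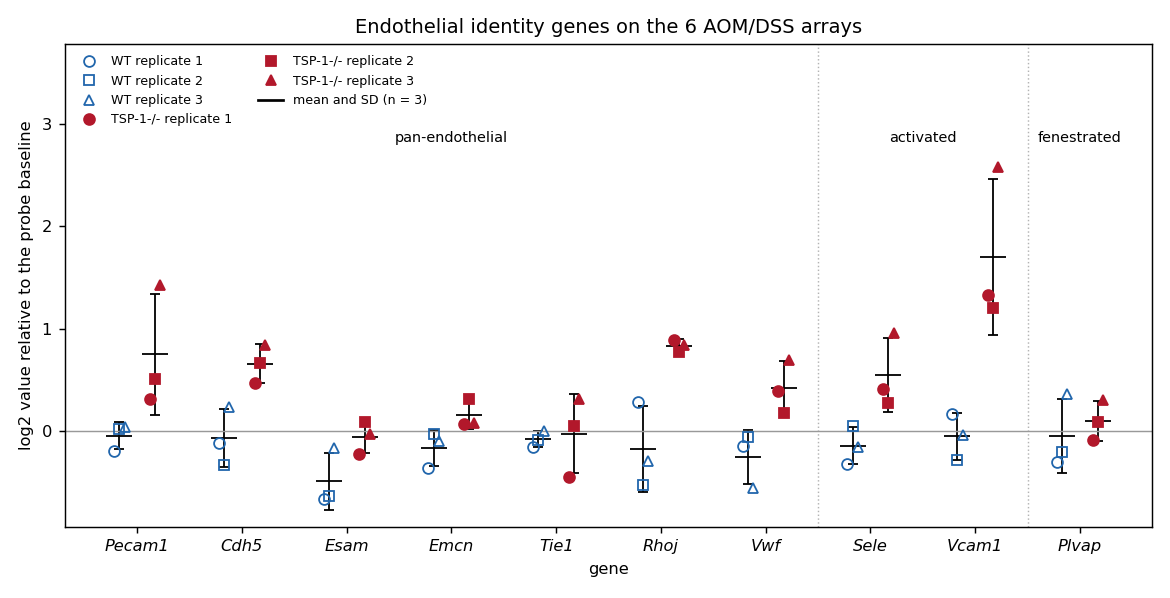
The log2 value relative to the probe set's baseline (vertical axis) is plotted for each of the 10 genes (horizontal axis) on the 3 WT (open blue) and 3 TSP-1-/- (filled red) AOM/DSS arrays, with the mean and SD (n = 3) as black lines and the replicate number as the symbol. The groups are apart for 7 genes and overlap for Esam, Tie1 and Plvap, and TSP-1-/- replicate 3 is the top TSP-1-/- array for Pecam1, Cdh5, Tie1, Vwf, Sele, Vcam1 and Plvap.

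Among the junction proteins, Pecam1 (probe set 10392221), which encodes the CD31 adhesion molecule that platelets and leukocytes also carry, was at -0.20, 0.02 and 0.04 on the WT AOM/DSS arrays and at 0.32, 0.51 and 1.42 on the TSP-1-/- AOM/DSS arrays. All TSP-1-/- arrays lay above all WT arrays, with replicate 3 far above the others. The log2 difference was 0.80 (SE 0.28, 1.74-fold), and Pecam1 did not pass the test (limma adjusted p = 0.0790). It was 0.46 without TSP-1-/- replicate 3 (limma adjusted p = 0.245).

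Cdh5 (probe set 10574438), VE-cadherin of the endothelial adherens junction, was at -0.11, -0.33 and 0.23 in WT and at 0.47, 0.66 and 0.84 in TSP-1-/- AOM/DSS colons. The groups did not overlap, although the gap between the highest WT and the lowest TSP-1-/- array was small beside the spread. Its log2 difference of 0.73 had a 95% confidence interval from -0.04 to 1.49 (limma adjusted p = 0.174). Esam (probe set 10584317), an adhesion molecule of endothelial tight junctions and platelets, was at -0.66, -0.64 and -0.17 in WT and at -0.23, 0.09 and -0.03 in TSP-1-/- colons. WT replicate 3 lay above TSP-1-/- replicate 1, so the groups overlapped, and the log2 difference was 0.43 (SE 0.17, limma adjusted p = 0.104).

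Of the surface molecules, Emcn (probe set 10496359) encodes endomucin, a sialomucin of capillaries and veins. It was at -0.36, -0.03 and -0.09 in WT and at 0.07, 0.31 and 0.08 in TSP-1-/- AOM/DSS colons. The groups were apart by a narrow margin, and the log2 difference was 0.32 with an interval from -0.33 to 0.96 (limma adjusted p = 0.466).

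Tie1 (probe set 10515771), a receptor tyrosine kinase that works with the angiopoietin receptor Tek, was at -0.16, -0.08 and -0.00 in WT and at -0.45, 0.05 and 0.31 in TSP-1-/- colons. The WT arrays lay inside the range of the TSP-1-/- arrays. The log2 difference was 0.05 (interval -0.35 to 0.46, limma adjusted p = 0.857), and its sign turned under several scalings, to -0.02 with the arrays centred. The interval leaves out a 2-fold difference in either direction.

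Rhoj (probe set 10396476), a small GTPase that shapes endothelial migration and tube formation, was at 0.28, -0.53 and -0.29 on the WT AOM/DSS arrays and at 0.89, 0.77 and 0.84 on the TSP-1-/- AOM/DSS arrays. The TSP-1-/- values lay within a narrow band (mean 0.83 ± 0.06 SD, n = 3) above a wider WT group (-0.18 ± 0.42 SD, n = 3). The log2 difference was 1.01 (SE 0.23, limma adjusted p = 0.0293), so Rhoj rose just past the 2-fold minimum. The call was lost without WT AOM/DSS replicate 2 (limma adjusted p = 0.0622), WT replicate 3 (0.106), TSP-1-/- replicate 1 (0.0555) or TSP-1-/- replicate 3 (0.0781). It was also lost with the arrays centred, where the log2 difference was 0.94 at a limma adjusted p of 0.0337, and after renewed quantile normalization over the 12 arrays (0.73, limma adjusted p = 0.0881) or within each array set (0.89, limma adjusted p = 0.0382). Array weights and the fit to the 2 groups alone left it uncalled as well (limma adjusted p = 0.0576 and 0.126). The WT array closest to the TSP-1-/- values was replicate 1, which had Hoxb13 near theirs. Against that array alone the log2 difference was 0.55 (limma adjusted p = 0.353, with the lone array taken to vary like the other groups).

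Vwf (probe set 10541910), the secreted factor that tethers platelets to injured vessels, was at -0.15, -0.06 and -0.55 in WT and at 0.39, 0.18 and 0.69 in TSP-1-/- AOM/DSS colons. The groups were apart, and the log2 difference was 0.67 (SE 0.17, 1.59-fold, limma adjusted p = 0.0378). The adjusted p stayed under 0.05 in 8 of 22 alternative fits. Leaving out replicate 3 of the WT AOM/DSS arrays gave a limma adjusted p of 0.131, and leaving out that of the TSP-1-/- AOM/DSS arrays gave 0.117.

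Of the adhesion molecules that activated endothelium places on its surface, Vcam1 (probe set 10501608) binds the alpha4 integrins of leukocytes and is also made by some macrophages and stromal cells. It was at 0.17, -0.29 and -0.04 on the WT AOM/DSS arrays and at 1.33, 1.20 and 2.58 on the TSP-1-/- AOM/DSS arrays. The lowest TSP-1-/- array lay well above the highest WT array, and TSP-1-/- replicate 3 was the highest of the 6. Vcam1 rose by a log2 difference of 1.76 (SE 0.32, interval 1.05 to 2.46, limma adjusted p = 0.0184), the widest genotype difference among the members. It was called in 19 of 22 alternative fits. The exceptions were the fit to the 2 groups alone (limma adjusted p = 0.122), the fit without WT AOM/DSS replicate 3 (log2 difference 1.76, limma adjusted p = 0.0701) and the fit without WT replicates 2 and 3 together (1.53, limma adjusted p = 0.228). After renewed quantile normalization over the 12 arrays the log2 difference was 1.03, and Vcam1 remained called (limma adjusted p = 0.0358).

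Sele (probe set 10351182), E-selectin, on which leukocytes roll, was at -0.32, 0.05 and -0.16 in WT and at 0.41, 0.27 and 0.96 in TSP-1-/- AOM/DSS colons. All TSP-1-/- arrays were above all WT arrays. The log2 difference was 0.69 (SE 0.20, 1.61-fold) and missed the test by a small margin (limma adjusted p = 0.0551).

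Plvap (probe set 10579525), the MECA-32 antigen of fenestral diaphragms, was at -0.31, -0.21 and 0.36 in WT and at -0.09, 0.09 and 0.30 in TSP-1-/- AOM/DSS colons. The top array of the 6 was WT replicate 3, so the groups overlapped, while all TSP-1-/- arrays lay above WT replicates 1 and 2. The log2 difference of 0.15 had an interval from -0.44 to 0.74 (limma adjusted p = 0.717), which leaves out a 2-fold difference. The products of Pecam1 and Plvap are the antigens stained in tumor sections, where the study counted more microvessels in TSP-1-/- than in WT tumors. Neither transcript passed the test in the colon RNA, which gives transcript levels and not vessel numbers.

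Against WT AOM/DSS replicate 1 alone, all 3 TSP-1-/- arrays were higher for 9 of the 10 members, Tie1 being the exception, where 39.7% of all probe sets had that order and 25.0% the opposite one. Without WT replicates 2 and 3 the log2 difference of Rhoj was 0.55. That fit leaves 1 WT AOM/DSS array, which has no spread of its own. Without TSP-1-/- AOM/DSS replicate 3 and WT replicate 1 together, Rhoj (log2 difference 1.24, limma adjusted p = 0.0156) and Vcam1 (1.43, limma adjusted p = 0.00902) were called. That fit called 1000 of all probe sets, against 802 with all arrays. Whether position along the colon, which Hoxb13 marks, has a part in these differences was not tested.

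In the water arrays no genotype difference passed the test. None of the 10 members and none of 28815 probe sets was called with limma (0.0% of probe sets), and 288 probe sets and 1 member, Esam, had an unadjusted p under 0.05. The median log2 difference was 0.08 over the members and -0.00 over all probe sets, and 9 of 10 lay above 0. The differences ran from -0.12 in Rhoj to 0.45 in Vcam1.

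**Figure D2:**
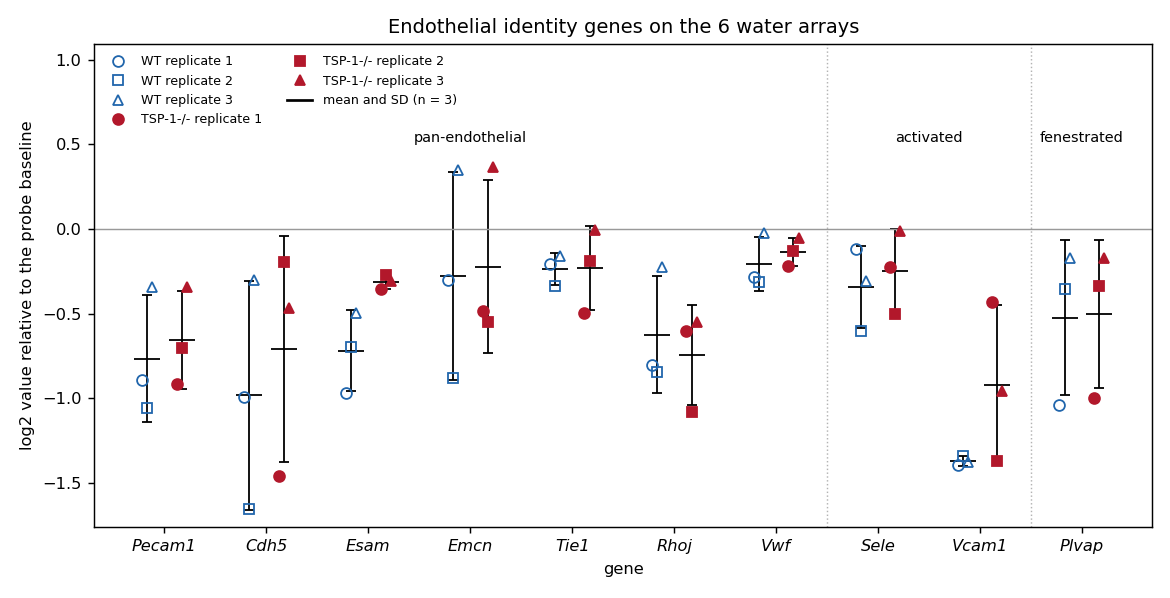
The log2 value relative to the baseline of the water arrays (vertical axis) is plotted for each of the 10 genes (horizontal axis) on the 3 WT (open blue) and 3 TSP-1-/- (filled red) water arrays, with the mean and SD (n = 3) as black lines and the replicate number as the symbol. The groups are apart for Esam alone, and replicate 3 of both genotypes is above the other replicates for Pecam1, Emcn, Tie1, Rhoj, Vwf and Plvap.

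Esam was at -0.97, -0.69 and -0.49 on the WT water arrays and at -0.35, -0.27 and -0.31 on the TSP-1-/- water arrays. It was the only member whose water groups did not overlap, where 2.29% of all probe sets were apart in that direction and 2.88% in the other. Its log2 difference of 0.41 was close to the 0.43 of the AOM/DSS arrays, and the limma p of 0.0311 became 1.00 after adjustment. The WT water values of Vcam1 were tight at -1.39, -1.34 and -1.38, whereas TSP-1-/- water values were -0.43, -1.37 and -0.96. One TSP-1-/- array lay among the WT arrays, and the log2 difference was 0.45 (interval -0.26 to 1.16, limma adjusted p = 1.00).

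Pecam1 was at -0.89, -1.06 and -0.34 in WT and at -0.92, -0.70 and -0.34 in TSP-1-/- water colons, and the values of the genotypes ran over the same range. Emcn was at -0.30, -0.88 and 0.35 in WT and at -0.49, -0.55 and 0.37 in TSP-1-/- water colons. Emcn was above 0 on replicate 3 of each genotype only, the water arrays on which Hoxb13 was low. Plvap was at -1.04, -0.35 and -0.17 in WT and at -0.997, -0.34 and -0.17 in TSP-1-/- water colons, so the spread lay within the genotypes and the log2 difference was 0.02 (interval -0.57 to 0.61).

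Rhoj was at -0.80, -0.84 and -0.22 in WT and at -0.60, -1.08 and -0.55 in TSP-1-/- water colons. The only negative difference among the members was that of Rhoj, -0.12 with an interval from -0.62 to 0.38. Cdh5 ran from -1.65 to -0.30 in WT and from -1.46 to -0.20 in TSP-1-/- water colons. Tie1, Vwf and Sele stayed between -0.60 and -0.00 on all 6 water arrays, and their log2 differences were 0.01, 0.07 and 0.10.

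Whether the genotype difference itself differed between AOM/DSS and water was tested as an interaction, in which a baseline that is constant for a probe set cancels. None of the members was called, and 2 of 28815 probe sets were (0.00694% called higher). The largest differences of differences among the members were 1.31 for Vcam1 (SE 0.46, limma adjusted p = 0.254) and 1.13 for Rhoj (SE 0.32, limma adjusted p = 0.236). Pecam1 followed with 0.69 (limma adjusted p = 0.388) and Vwf with 0.60 (limma adjusted p = 0.284). Vcam1, Rhoj and Vwf had an unadjusted limma p under 0.05 (0.0149, 0.00456 and 0.0273), as had 4431 probe sets. Plvap was at 0.13 (limma adjusted p = 0.878). Esam had nearly the same genotype difference in both array sets, apart by 0.03 (interval -0.49 to 0.54).

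**Figure D3:**
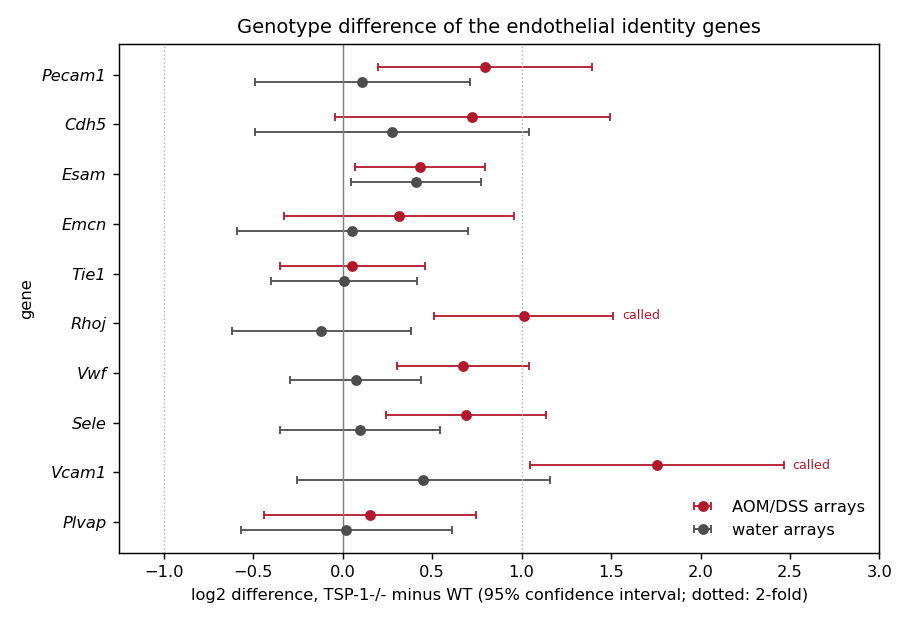
The log2 difference TSP-1-/- minus WT (horizontal axis, points) with its 95% confidence interval (bars, limma on all 12 arrays) is shown for each gene within the AOM/DSS arrays (red) and within the water arrays (grey), and dotted lines mark 2-fold. Vcam1 at 1.76 and Rhoj at 1.01 are the genes called, and all water intervals but that of Esam cross 0.

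The 7 pan-endothelial and the 3 activated or fenestrated genes were set side by side on each AOM/DSS array. The mean of the pan-endothelial genes was -0.19, -0.24 and -0.12 in WT and 0.21, 0.37 and 0.59 in TSP-1-/- colons. That of Sele, Vcam1 and Plvap was -0.15, -0.15 and 0.06 in WT and 0.55, 0.52 and 1.28 in TSP-1-/- colons. Both classes were higher on every TSP-1-/- array than on any WT array. The activated or fenestrated mean exceeded the pan-endothelial mean by 0.04, 0.09 and 0.17 in WT and by 0.34, 0.15 and 0.69 in TSP-1-/- colons. These excesses overlapped between the genotypes, since TSP-1-/- replicate 2 was below WT replicate 3, and their means differed by 0.29, or by 0.18 with the median of each class on each array in place of its mean. Within the class the 3 genes were unlike, with log2 genotype differences of 1.76 in Vcam1, 0.69 in Sele and 0.15 in Plvap. Without Plvap the means of the excesses differed by 0.65. On the water arrays they differed by 0.07 with Plvap and by 0.16 without it.

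The AOM/DSS values also give the place of each treated array against the 12-array median, since they are expressed relative to it. Pecam1 was above that median on 5 of the 6 AOM/DSS arrays, Cdh5, Rhoj, Sele and Vcam1 on 4, Emcn, Vwf and Plvap on 3, Tie1 on 2 and Esam on 1. No member had all 6 AOM/DSS arrays on one side, as 2.02% of probe sets had above and 4.02% below, so no exact test was made. The 3 TSP-1-/- AOM/DSS arrays were all above the median for Pecam1, Cdh5, Emcn, Rhoj, Vwf, Sele and Vcam1. The treatment cannot be told apart here from the set of arrays.

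Other genes of endothelial cells were read from a list of 20. In the AOM/DSS comparison 3 of them rose (Sox17, Fli1 and Ecscr) and none fell, and the median log2 difference was 0.46. Sox18 (0.93) and Icam2 (0.88) had an adjusted p under 0.05 without reaching 2-fold (limma adjusted p = 0.0217 and 0.0452). Sox17, an SRY-related factor of arterial endothelium, was at 0.06, -0.62 and -0.26 on the WT arrays and at 2.55, 0.49 and 2.56 on the TSP-1-/- arrays (log2 difference 2.14, limma adjusted p = 0.0234). Ecscr, an endothelial regulator of chemotaxis, was at 1.08, 0.03 and -0.26 in WT and at 1.33, 1.82 and 1.55 in TSP-1-/- colons (1.28, limma adjusted p = 0.0302). Fli1, an ETS factor that blood cells also make, was at -0.06, -0.07 and -0.36 in WT and at 0.86, 0.66 and 2.50 in TSP-1-/- colons (1.50, limma adjusted p = 0.0395). The groups of all 3 genes were apart. The list was not uniform: Clec14a, a lectin-like protein of tumor endothelium, was at 0.20, 0.52 and 0.67 in WT and at -0.41, -1.21 and -0.12 in TSP-1-/- colons. All its TSP-1-/- arrays were below all its WT arrays, with a log2 difference of -1.04 (limma adjusted p = 0.0578). Without WT AOM/DSS replicate 3, Sox17, Fli1 and Ecscr lost their calls (limma adjusted p = 0.0821, 0.134 and 0.112), as they did without WT replicate 2 (0.0524, 0.0646 and 0.0627) and without TSP-1-/- replicate 3 (0.0704, 0.0640 and 0.0781). Leaving out single water arrays ended the call of Fli1 too (highest 0.0587, without WT water replicate 1). After renewed quantile normalization over the 12 arrays all 3 were uncalled, with differences of 1.25 in Sox17 (limma adjusted p = 0.0553), 0.83 in Fli1 (0.0529) and 0.60 in Ecscr (0.316). Within each array set the normalization left Ecscr uncalled (0.76, limma adjusted p = 0.229), and array weights left Fli1 and Ecscr uncalled (limma adjusted p = 0.0930 and 0.0571). Against WT replicate 1 alone the difference of Ecscr was 0.48. In the fit to the 2 groups alone, none of the genes named as risen or fallen from this and the other gene lists was called (limma adjusted p from 0.108 to 0.15).

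Of 4 further genes of activated endothelium, Icam1, the ligand of leukocyte beta2 integrins, rose (log2 difference 1.15, limma adjusted p = 0.0326), and Cx3cl1, a membrane-bound chemokine, was lowest at -0.43. Icam1 lost its call without WT AOM/DSS replicate 2 (limma adjusted p = 0.0627), WT replicate 3 (0.123) or TSP-1-/- replicate 3 (0.102), and its difference was 0.71 against WT replicate 1 alone and 0.79 after renewed quantile normalization over the 12 arrays (limma adjusted p = 0.111). Of 8 genes of the cytokine and NF-kB pathway that activates endothelium, Il1b rose (3.31, limma adjusted p = 0.0478) and the receptor gene Tnfrsf1a was lowest at -0.11. Il1b was called in 4 of 22 alternative fits. Its limma adjusted p was above 0.05 in 9 of the 12 fits that leave out 1 array, up to 0.154 without WT AOM/DSS replicate 3, and its difference was 1.82 against WT replicate 1 alone and 1.58 after renewed quantile normalization over the 12 arrays (limma adjusted p = 0.355). None of 5 leukocyte partners of Sele and Vcam1 was called by limma. Of these, 2 had an unadjusted p under 0.05, as had 9327 of 28853 probe sets. Among them Itga4, the alpha4 integrin that binds Vcam1, had the largest difference (1.44, limma adjusted p = 0.0657) and Glg1, an E-selectin ligand, the smallest (-0.00).

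Cells of the vessel wall and of other tissues were read in the same way. Of 8 pericyte genes limma called none, with 2 at an unadjusted p under 0.05, as were 9327 of 28853 probe sets. Notch3 reached an adjusted p under 0.05 at 0.65 (limma adjusted p = 0.0399), and Rgs5 was lowest at -0.35. Of 6 lymphatic endothelial genes Prox1, the lymphatic homeobox gene that enteroendocrine cells also express, rose by 2.62 (limma adjusted p = 0.0108), and it was called in each of the 12 fits that leave out 1 array. It was not called after quantile normalization, either over the 12 arrays (1.11, limma adjusted p = 0.186) or within each array set (1.44, limma adjusted p = 0.0966). Prox1 was at 1.36, -0.02 and -0.27 on the WT arrays and at 2.80, 2.68 and 3.44 on the TSP-1-/- arrays. Its difference was 1.62 against WT replicate 1 alone (limma adjusted p = 0.181). Pdpn was at 0.99 (limma adjusted p = 0.0402) and Mmrn1 at -0.35. Of 5 platelet genes Ppbp, a platelet chemokine, rose by 1.48 (limma adjusted p = 0.0271), with the call lost without WT AOM/DSS replicate 2 (limma adjusted p = 0.0548), WT replicate 3 (0.104) or TSP-1-/- replicate 3 (0.0754), with array weights (0.0951) and after renewed quantile normalization over the 12 arrays (0.90, limma adjusted p = 0.102).

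**Figure D4:**
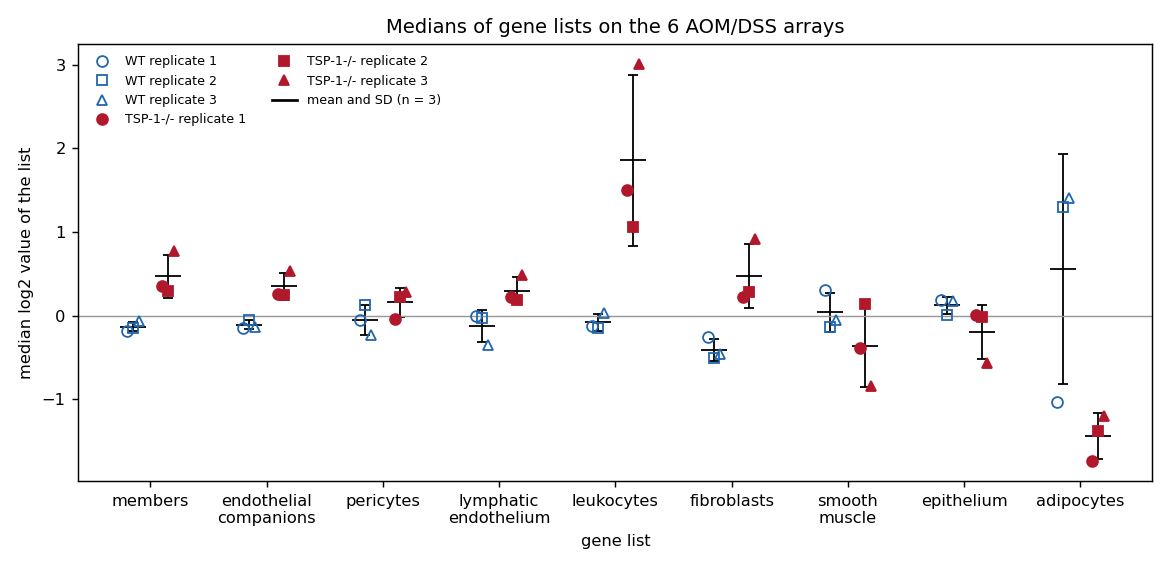
The median log2 value of each gene list (vertical axis) is plotted for the members and 8 other lists (horizontal axis) on the 3 WT (open blue) and 3 TSP-1-/- (filled red) AOM/DSS arrays, with the mean and SD (n = 3) as black lines. The leukocyte list runs from 1.06 to 3.01 on the TSP-1-/- arrays and from -0.15 to 0.04 on the WT arrays, a wider gap than that of the members.

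Leukocyte markers also stood higher in TSP-1-/- than in WT AOM/DSS colons. Of 7 leukocyte genes 5 rose (Cd53, Laptm5, Itgb2, Lcp1 and Tyrobp) and none fell, and all 7 differences lay above 0 with a median of 1.75. The list median was 1.50, 1.06 and 3.01 on the TSP-1-/- AOM/DSS arrays against -0.13, -0.15 and 0.04 on the WT arrays. Replicate 3 was thus the highest TSP-1-/- array here, as it was for Vcam1 and Pecam1 but not for Rhoj, Emcn or Esam. Cd53, a tetraspanin of leukocytes, had the largest difference (2.26, limma adjusted p = 0.0236). All 5 lost their calls without WT AOM/DSS replicate 3 (limma adjusted p from 0.0821 to 0.104). All but Cd53 also lost them without WT replicate 2 (from 0.0554 to 0.0649) and without TSP-1-/- replicate 3 (from 0.0527 to 0.104), and Tyrobp without WT AOM/DSS replicate 1 (0.0516) and WT water replicates 1 and 3 (0.0514 and 0.0502). After renewed quantile normalization over the 12 arrays Cd53 (1.24) and Laptm5 (1.02) remained called, while Itgb2, Lcp1 and Tyrobp were not (limma adjusted p from 0.0655 to 0.0848). With array weights only Laptm5 of the 5 was called (limma adjusted p = 0.0437). The part of leukocytes in the differences of Vcam1, Pecam1 and Fli1 was not tested.

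Fibroblast genes were also higher, with Col1a1, the main collagen chain, called at 1.30 (limma adjusted p = 0.0140, 0.0587 without WT AOM/DSS replicate 3, and under 2-fold at 0.95 after renewed quantile normalization over the 12 arrays) among 7 genes that all lay above 0. The fibroblast list median ran from -0.50 to -0.26 on the WT arrays and from 0.23 to 0.91 on the TSP-1-/- arrays. The 7 epithelial and 7 smooth muscle genes lay below 0 without exception, with medians of -0.39 and -0.38. Limma called none of them. An unadjusted p under 0.05 was found for 4 epithelial and 0 smooth muscle genes, and for 9327 of 28853 probe sets. Cdx2, a homeobox factor of the gut epithelium, was the lowest epithelial gene at -1.10 (limma adjusted p = 0.0662) and Cdh1 the highest at -0.08. The smooth muscle genes ran from -0.58 in Smtn to -0.11 in Cnn1. Of 5 adipocyte genes Cidec and Retn fell, with log2 differences of -2.23 and -2.04 (limma adjusted p = 0.0361 and 0.0399). Their list median was -1.03 on WT AOM/DSS replicate 1 but 1.30 and 1.40 on WT replicates 2 and 3, and between -1.74 and -1.20 on the TSP-1-/- arrays. Against WT replicate 1 alone the differences of Cidec and Retn were -0.77 and -0.58. Their calls held in 4 and 2 of the 12 fits that leave out 1 array, with limma adjusted p up to 0.132 and 0.149, both without WT replicate 3, and neither was called after renewed quantile normalization over the 12 arrays (0.0855 and 0.0955). Limma called none of the 5 pancreatic genes, and 0 had an unadjusted p under 0.05, with differences from 2.02 in Cpa1 to 3.24 in Cel that rest on TSP-1-/- replicate 3. The part of fibroblast, adipose or pancreatic RNA in the endothelial differences was not tested.

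In the water comparison none of these lists had a gene called by limma, and 4 of their 94 genes had an unadjusted p under 0.05 (Pdpn, Col3a1, Tyrobp and Gpihbp1). The endothelial list of 20 had a median log2 difference of 0.04, the leukocyte list 0.37 and the fibroblast list 0.38. The leukocyte list median ran from -1.49 to -0.95 on the WT water arrays and from -1.23 to -0.26 on the TSP-1-/- water arrays, so that the groups overlapped.

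For likeness of pattern, the mean absolute difference of log2 values over the 12 arrays was taken, with each array set centred on its own mean. The probe sets nearest to Pecam1 were those of Maml2 (0.113), Anxa6 (0.118) and Slc2a3 (0.119). Nearest to Plvap were Elmo1 (0.144), Kctd12b (0.144) and Spef2 (0.145). For Vcam1, looked at after its values were seen, they were Cybb (0.138), Lyz2 (0.140) and Lcp2 (0.145). None of the other members was among the 3 nearest of any of these genes.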

How the data were processed

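Whole-transcript arrays (Affymetrix MoGene 1.0 ST) of 12 colons were used, in 4 groups of 3 taken from the labels, where each is given as a biological replicate. The deposited values are log2 signals that the authors summarised with PLIER16, quantile normalized and set relative to a median over the 12 arrays. The genome build was not given in the sources used here. The means of 377 genes in a supplementary list matched the AOM/DSS values within 0.0001 (376 of them exactly 1 probe set) and the water values in 0 cases, so the water arrays lie on another baseline, and no limma test was made between treated and water arrays. Of the probe sets, 21789 had 1 symbol, 1621 several and 5443 none. Those with all 12 values numbered 28815, and the others were not tested in water.

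Genotypes were compared with limma 3.58.1 in R 4.3.3 (1 mean per group, moderated variances, Benjamini-Hochberg adjustment over all probe sets). The thresholds were those of the methods (adjusted p under 0.05, at least 2-fold). The methods applied them to an analysis of variance over all conditions after filters, so the calls here are not those of the study. The method was tested on simulated data. The signal filter of the methods could not be applied to relative values, and the filter on variability was run as an alternative. The other alternatives were a replicate block, a fit to the 2 groups compared, array weights, eBayes with trend and robust, centring, quantile normalization over 12 arrays or within sets, and leaving out each array. Leaving out 2 arrays together, leaving out arrays in the class comparison and dropping the fold minimum were added after the values were seen. Named were all members, in each list the called genes (for the leukocytes with the values of 1) or the largest and smallest difference, and the 3 nearest patterns of Pecam1 and Plvap. Some further list genes were named after their values were seen, among them Sox18, Icam2, Clec14a and Vcam1's nearest patterns. The members, lists and motifs were chosen with earlier results of these data known. Selp, Il1r1, Nfkb1, Ccl21a, Gp6, Cfd and Pnlip, listed too, had no single-symbol probe set. Tables were made with Python 3.11.15, pandas 2.3.3 and numpy 2.4.6. The number of arrays limits the precision. Each limma p sets a difference against the spread between mice within groups, pooled over all 12 arrays of both sets.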

Additional observations from a re-analysis of the deposited data

How the results depend on the processing

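Having 3 arrays per group sets the precision, relative values give no signal over background, and the probe sets' positions were not analysed. Members called in the AOM/DSS genotype comparison numbered 2, and 1 with array weights, with each array centred on its median, or with quantile normalization of the 12 arrays again or within each array set; they numbered 0 in the fit to the 2 groups compared and 0 without WT AOM/DSS replicates 2 and 3 together. Leaving out 1 array gave 0 to 2. With no fold minimum the count was 3. Over all probe sets the calls were 802, and 359 with array weights, 183 after quantile normalization of the 12 arrays, 6 in the fit to the 2 groups, 4 without WT replicates 2 and 3, and from 104 (without WT AOM/DSS replicate 3) to 1402 (without TSP-1-/- AOM/DSS replicate 2) with 1 array left out; for the interaction they were 2, and 76 with array weights, 18 and 20 after the quantile normalizations, 9 with the filter on variability, 0 with trend and robust, 402 without TSP-1-/- AOM/DSS replicate 3 and WT replicate 1, and from 1 to 289 with 1 array left out. The cause was not tested, and fits that leave out arrays hold fewer samples. In water 0 probe sets were called, and 1 without WT water replicate 3. Rhoj was called in 12 and Vcam1 in 19 of 22 alternatives, both with a difference above 0 in each. The alternatives include the fits without 1 water array, which leave the size of the AOM/DSS differences unchanged.

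The sign of small differences turned. In the AOM/DSS comparison Tie1 was -0.13 with array weights, -0.021 with the arrays centred, -0.043 and -0.049 after quantile normalization of the 12 arrays and within sets, and -0.15 without TSP-1-/- AOM/DSS replicate 3 and WT replicate 1, where Plvap was -0.077. In water, Cdh5 was -0.073 and -0.085 and Plvap -0.054 and -0.067 after the 2 quantile normalizations, and with array weights Emcn was -0.092, Tie1 -0.042 and Sele -0.027. In the interaction, Esam was -0.052 with array weights and -0.053 with the arrays centred, -0.073 and -0.032 after the 2 quantile normalizations, and Tie1 -0.091, -0.030, -0.099 and -0.084; without TSP-1-/- replicate 3 and WT replicate 1 Esam was -0.074, Tie1 -0.16 and Plvap -0.097. With 1 array left out, Tie1 in AOM/DSS ran from -0.12 to 0.26. In water Pecam1 ran from -0.046 to 0.32, Cdh5 from -0.062 to 0.65, Emcn from -0.25 to 0.37, Tie1 from -0.11 to 0.14, Rhoj from -0.23 to 0.080, Sele from -0.033 to 0.23 and Plvap from -0.24 to 0.27. In the interaction Esam ran from -0.087 to 0.19, Emcn from -0.052 to 0.56, Tie1 from -0.12 to 0.26 and Plvap from -0.12 to 0.39. The activated or fenestrated excess was 0.65 without Plvap in AOM/DSS, and with 1 array left out it ran from 0.15 to 0.41 in AOM/DSS and from -0.049 to 0.21 in water. The number of members with all AOM/DSS arrays on one side of the median ran from 0 to 1 with 1 array left out.

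Whether the replicate numbers pair the mice is not given. Deviations from the group means correlated at 0.03, -0.04 and -0.02 between same-numbered AOM/DSS arrays, and from -0.02 to 0.05 between the others. In water they correlated at 0.09, 0.28 and 0.40 between same-numbered arrays, and from -0.38 to 0.18 between the others. With the replicate number as a block 2 members were called, as without it, and 803 against 802 probe sets. Pecam1 then had a limma adjusted p of 0.0391 and Vwf of 0.0537. The block gave each number the same effect in both array sets, so it could not test a pairing in water alone.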
